A study of Rattus norvegicus with 47 samples.

Results

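Kidney mRNA was compared between 8 rats on a standard diet (SD) and 8 rats on a high-fat diet (HFD), which are 16 of the 47 samples of the series. The 16 libraries were taken by their labels, as all those made from kidney RNA for mRNA sequencing. All rats were male Wistar Han, an outbred strain with no genetic modification, were 7 weeks old at the start and ate their diet for 10 weeks. No other treatment separated the groups, and each library came from the kidney tissue of 1 rat. A value is a normalized count, the authors' count of fragments per gene made comparable between libraries. Of 14747 genes, the 13673 whose mean reached 5 were compared with limma as log2 of the value plus 1, and a fold change is given as HFD over SD with its standard error (SE). Lists of genes are described by the number of members above 0 on that scale and by their median. Library sums lay between 17623718 and 22565849 for SD rats and between 18482535 and 21078315 for HFD rats.

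The kidney filters blood in the glomeruli, where podocytes form the outer layer of the filter, and recovers water, salts, sugar and amino acids along the nephron. The proximal tubule of the cortex burns fatty acids to drive this work. The loop of Henle and the collecting duct run through the medulla down to the papilla, which is lined by urothelium. Diets rich in fat are known to change lipid handling, mitochondrial work, protein folding and inflammation in the kidney, and the gene lists below cover those functions and the cell types of the organ. In bulk tissue, fewer cells of a type and less RNA per cell cannot be told apart.

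Some libraries differed in ways that did not follow the diet, and they bear on the results. The first principal component accounted for 46.2% of the variance. On it, 5 libraries (SD rats 1247 and 1248, HFD rats 1252, 1255 and 1274) scored between 54.3 and 78.3, and the other 11 between -75.7 and -1.39. Of the 13673 genes tested, 1534 lay in all 5 below the lowest of the other 11, and 658 lay above their highest. The 5 were picked by a score made from these same genes, so genes that separate them follow from that choice. Scand1, a small nuclear protein gene, stood at 7.58 to 20.1 in the 5 libraries and at 431 to 3083 in the other 11. Hist2h2aa3, a histone gene, stood at 5.53 to 9.44 against 261 to 2011. Hoxa6, a homeobox gene, was listed at 0 in all 5 against 6.99 to 102. The diets split 2 to 3 among the 5 and 6 to 5 among the others, so the main results below are also given without these 5 libraries, an alternative chosen after seeing the data.

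**Figure D1:**
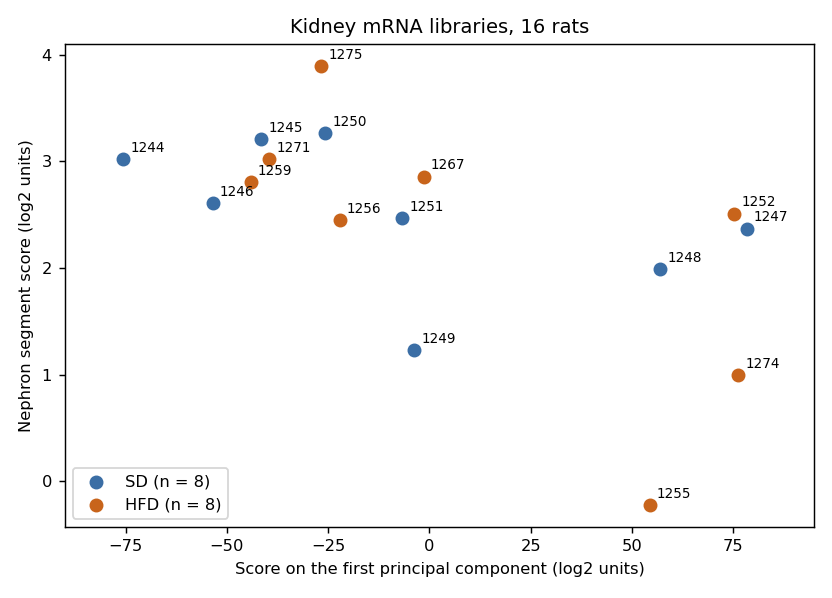
Each point is 1 rat, with its score on the first principal component of log2 values on the horizontal axis and its nephron segment score (mean log2 level of proximal tubule genes minus that of medullary segment genes) on the vertical axis. The 5 libraries at the right hold rats of both diets, and HFD rat 1255 has the lowest segment score, -0.22.

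The balance of nephron segments also differed between libraries. The segment score, the mean log2 level of 20 proximal tubule genes minus the mean of those of the thick ascending limb, inner medulla and principal cell lists, ran from 1.23 through a median of 2.54 to 3.26 in the SD group and from -0.22 through 2.66 to 3.90 in the HFD group. The groups overlapped, and the difference between their means was within the spread (two-sided exact permutation over 12870 splits, p = 0.680). Slc5a2, the glucose transporter of the early proximal tubule, stood at 9.28 in HFD rat 1255 and 18.8 in HFD rat 1274, and between 163 and 2616 in the other 14. Slc14a2, the urea transporter of the inner medulla, reached 514 in SD rat 1249, 476 in HFD rat 1252 and 411 in HFD rat 1255, while the other 13 rats lay at 93.2 or below.

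HFD rat 1255 stood apart for the urothelium, the lining of the renal pelvis. The summed urothelium list (6 genes) was 9481 in this rat and between 21.0 and 1755 in the other 15, where SD rat 1246 was the highest. The summed adipocyte list (11 genes) ran from 4150 through 6871 to 25681 in the SD group and from 3367 through 5730 to 22148 in the HFD group. Ucp1, the uncoupling protein that defines brown fat, stood at 4081 in SD rat 1244, 1896 in SD rat 1245 and 2569 in HFD rat 1255, and at 48.4 or below in the other 13. The highest value was thus in an SD rat. The proximal tubule list (20 genes) summed to between 456585 and 792536. Its mean log2 level, relative to all rats, was -1.686 in HFD rat 1255 and -1.215 in HFD rat 1274. In the other rats it lay between -0.37 and 0.837. Slc6a19, a member of that list, stood at 113 in rat 1255 and 183 in rat 1274, and between 420 and 2679 in the others. The sum alone therefore does not show how much kidney cortex each library held.

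**Figure D2:**
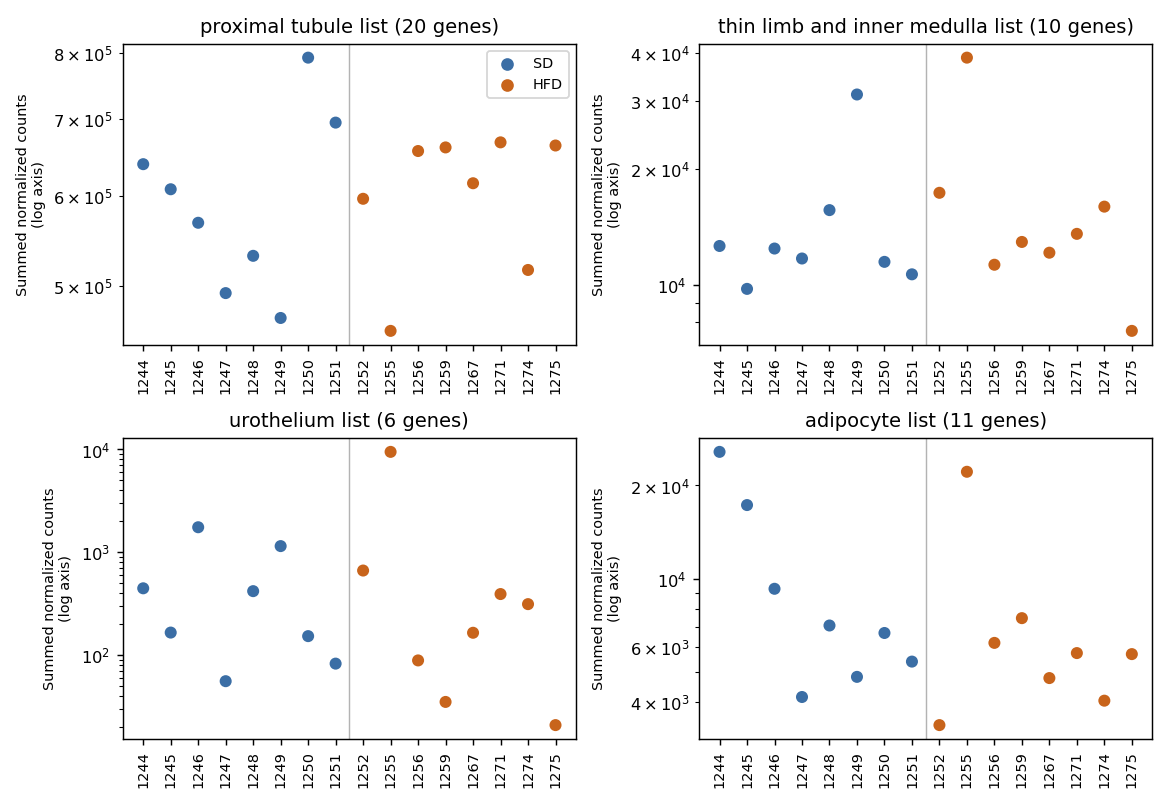
Summed normalized counts (log axis) of 4 cell type lists in each rat, with SD rats left and HFD rats right of the line. Urothelium was highest in HFD rat 1255 at 9481, and adipocyte genes were highest in SD rat 1244 at 25681 and HFD rat 1255 at 22148.

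The whole transcriptomes did not separate by diet beyond the spread between rats. Diet accounted for 5.49% of the variance of the 13673 genes (exact permutation test over 6435 splits, p = 0.480). The mean distance to the centre of the own diet group was 112 in HFD rats and 117 in SD rats (exact permutation test, two-sided, p = 0.685), so neither diet was shown to vary more.

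A gene was called where its adjusted p (Benjamini-Hochberg over all genes) was under 0.05 and its log2 fold change was over 1 in size. By that rule limma called 0 of the 13673 genes (0%), and 0 without the limit on size. The smallest adjusted p from limma was 0.433. At an unadjusted p under 0.05 there were 593 genes (4.34%), a share no larger than the 0.05 that chance alone gives on average. Of these, 245 (1.79%) were higher and 348 (2.55%) lower in HFD rats. With library totals made equal, this split became 602 higher and 157 lower, so the balance between the directions depended on the scaling. With the segment score as a covariate 0 genes were called, and 719 (5.26%) had an unadjusted p under 0.05. With the first principal component as a covariate 0 were called and 1006 (7.36%) had an unadjusted p under 0.05. With that component computed after removal of the diet means, limma called 77 genes (0.563%) at any size, none of which was called with the component itself. The median log2 fold change of all genes was -0.02 as deposited and 0.05 with equal totals. Of the 593 genes, 367 were also at an unadjusted p under 0.05 in the same direction without the 5 libraries. The genes below are the 12 per direction with the smallest p, and none of them passed the adjusted threshold in the comparison of all 16 rats.

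Among the genes with higher values in HFD rats were enzymes of arachidonic acid metabolism. Cyp2c11 (ENSRNOG00000052810), a cytochrome P450 of male rats that turns arachidonic acid into epoxides, ran from 1354 through a median of 2088 to 3091 in SD rats and from 2845 through 4176 to 9189 in HFD rats. In 6 HFD rats it lay above every SD rat, with HFD rat 1256 the highest. Its log2 fold change was 1.13 (SE 0.23, n = 8 per diet, limma, adjusted p = 0.433). Hpgd (ENSRNOG00000010610), the dehydrogenase that inactivates prostaglandins, ran from 339 through 417 to 653 in SD rats and from 481 through 701 to 833 in HFD rats. The groups overlapped through SD rats 1250 and 1251, at 578 and 653, and the other 6 SD rats lay below every HFD rat. Hpgd had a log2 fold change of 0.64 (SE 0.16, limma, adjusted p = 0.918). Without the 5 libraries the log2 fold changes were 1.26 for Cyp2c11 and 0.59 for Hpgd. Cyp2c11 has close relatives in the Cyp2c family, so its count is uncertain where reads fit several of them.

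Of genes that act at membranes and in transport, Atp12a (ENSRNOG00000020685), the proton and potassium pump of the collecting duct and other epithelia, ran from 21.8 through 41.9 to 117 in SD rats. In HFD rats it ran from 65.5 through 182 to 380. The overlap lay in libraries described above. SD rats 1247 and 1248 were the highest of their group at 107 and 117, and HFD rats 1255 and 1274 the lowest of theirs at 65.5 and 95.4. HFD rat 1252, also of those libraries, went the other way, with the highest value of all at 380. Among the other 11 rats the highest SD value was 54.2 and the lowest HFD value 152. Sorcs1 (ENSRNOG00000011313), a sorting receptor of the sortilin family, showed a similar layout, from 86.6 through 111 to 220 in SD rats and from 112 through 242 to 346 in HFD rats. Its highest SD values, 166 and 220, were those of rats 1247 and 1248, and its lowest HFD values, 112 and 165, those of rats 1274 and 1255. HFD rat 1252 stood at 226. With all 16 rats the log2 fold change was 1.92 (SE 0.41) for Atp12a and 0.89 (SE 0.23) for Sorcs1.

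Several genes of immune and mucosal defence also had higher values in HFD rats. Klrb1c (ENSRNOG00000007811), a C-type lectin receptor of natural killer cells, ran from 9.47 through 20.1 to 47.2 in SD rats and from 41.1 through 50.1 to 79.7 in HFD rats. A single SD rat, 1250 at 47.2, reached into the HFD range. The log2 fold change was 1.38 (SE 0.26, limma, adjusted p = 0.433), and without rat 1250 it was 1.56 with an adjusted p of 0.0316 from limma. Leaving out the only overlapping rat separates the diets fully, so the smaller p follows from which rat was removed. It is also not adjusted for the number of fits without single rats. No other gene was called when a single rat was left out. Of the T and natural killer cell list, which holds Klrb1c, 6 of 14 members lay above 0, beside 46.2% of all genes. The median log2 fold change of the list was -0.11.

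Pigr (ENSRNOG00000004405), the receptor that carries immunoglobulin A across epithelia, ran from 3474 through 4409 to 7247 in SD rats and from 5085 through 7317 to 9057 in HFD rats. Here too SD rats 1247 and 1248 were the highest of their group, at 7247 and 6552. The log2 fold change of Pigr was 0.59 (SE 0.16), and 0.85 without the 5 libraries. Sectm1b (ENSRNOG00000036673), of the family of secreted and transmembrane proteins, ran from 347 through 592 to 769 in SD rats and from 618 through 840 to 1257 in HFD rats. In 7 HFD rats it lay above every SD rat, and only rat 1255 did not.

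The other genes with higher values had mixed roles. Epha3, an ephrin receptor, was the only tested gene in which all 8 HFD rats lay above all 8 SD rats (1 of 13673, 0.00731%), at 7.83 through 12.2 to 28.3 against 0.75 through 3.60 to 6.65. With 13673 genes and 12870 splits of 8 and 8, 1 such gene per direction can arise by chance. Ythdf2 (ENSRNOG00000010892), which reads methylated adenosines and speeds the decay of mRNA, ran from 326 through 440 to 520 in SD rats and from 459 through 603 to 658 in HFD rats. All HFD rats but 1256 lay above every SD rat, with a log2 fold change of 0.43 (SE 0.11). Pros1, the anticoagulant protein S, ran from 539 to 946 in HFD rats and from 346 to 708 in SD rats, and kept a log2 fold change of 0.50 without the 5 libraries. LOC299312 and LOC680121, which carry no gene name in the table, had log2 fold changes of 0.68 and 0.61.

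**Figure D3:**
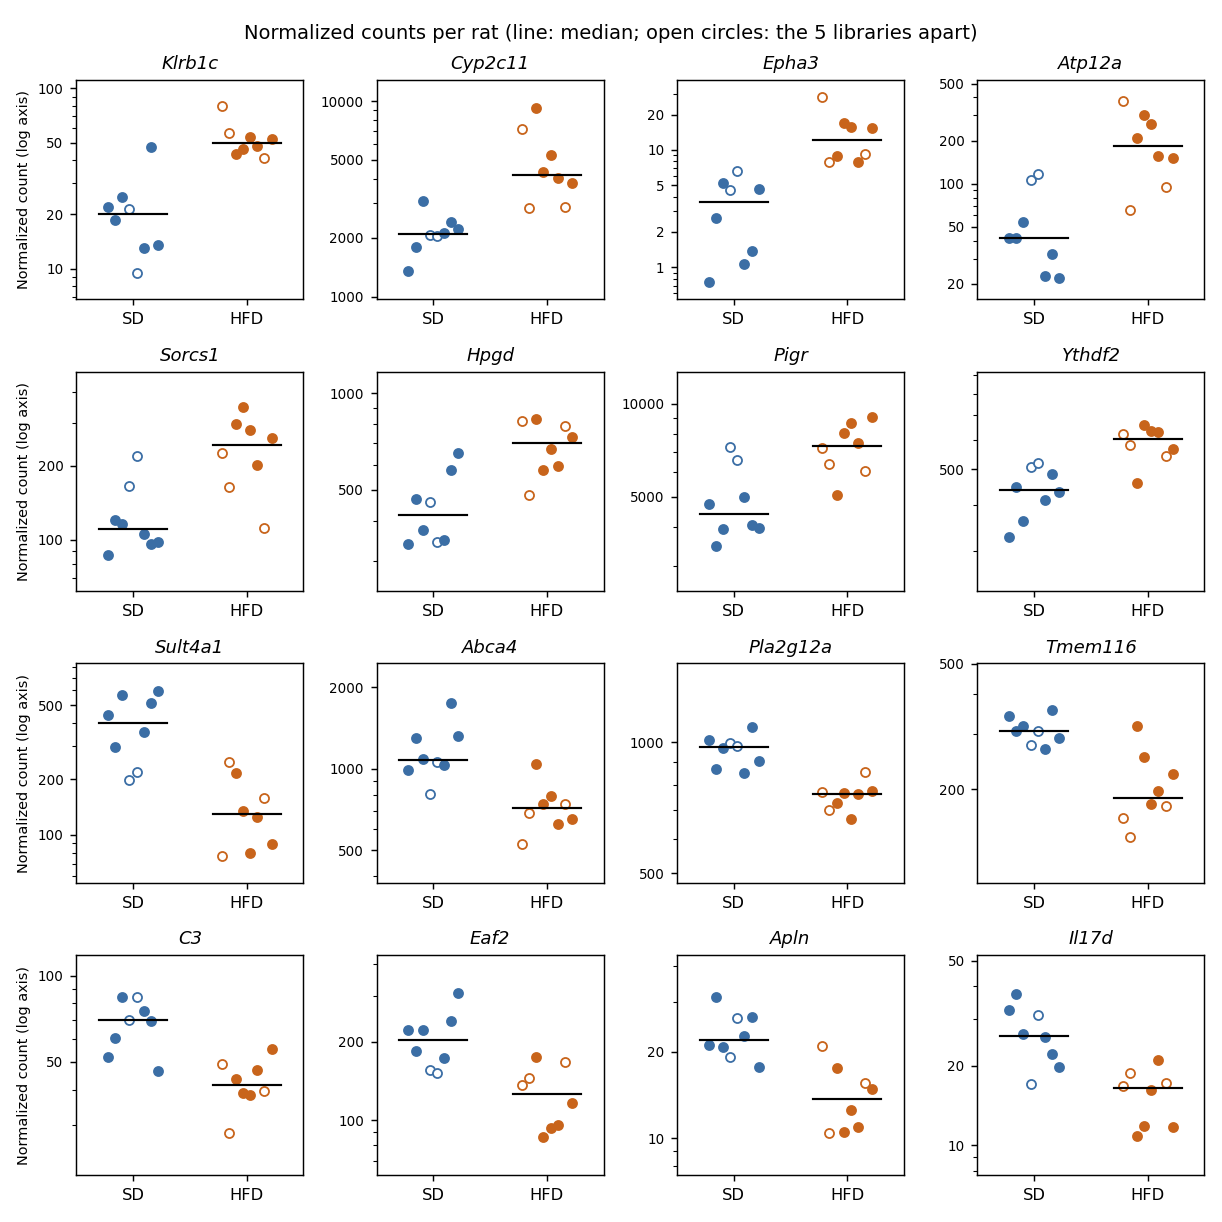
Normalized counts (log axes) of 16 genes in each rat, with a line at the median of each diet and open circles for the 5 libraries that stood apart. The groups overlap in every gene shown except Epha3, and the open circles fill most of the overlap for Atp12a, Sorcs1 and Pigr.

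Among the genes with lower values in HFD rats were 2 of lipid handling. Pla2g12a (ENSRNOG00000057470), a secreted phospholipase, ran from 849 through 976 to 1085 in SD rats and from 665 through 763 to 855 in HFD rats. All HFD rats but 1274, at 855, lay below every SD rat. The log2 fold change was -0.35 (SE 0.08, limma, adjusted p = 0.651), and -0.36 without the 5 libraries. Abca4 (ENSRNOG00000012892), a lipid flippase best known from the retina, ran from 805 through 1074 to 1753 in SD rats and from 529 through 714 to 1040 in HFD rats. All HFD rats but 1256 lay below every SD rat. The log2 fold change of Abca4 was -0.68 (SE 0.15).

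Sult4a1, a sulfotransferase of the brain, ran from 197 through 401 to 599 in SD rats and from 77.1 through 130 to 248 in HFD rats. The lowest SD values, 197 and 218, were those of rats 1247 and 1248, and the highest HFD value was that of rat 1255. The lowest HFD value, 77.1, was that of rat 1252, another of the 5 libraries. Its log2 fold change was -1.51 (SE 0.29). Eaf2 (ENSRNOG00000002350), a transcription elongation factor, ran from 151 through 203 to 308 in SD rats and from 86.3 through 127 to 175 in HFD rats, with rats 1247 and 1248 again the lowest of the SD group at 157 and 151. The log2 fold change of Eaf2 was -0.71 (SE 0.19), and -1.01 without the 5 libraries.

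Among secreted signals and immune genes, C3 (ENSRNOG00000046834), the central complement component, ran from 46.5 through 69.8 to 84.0 in SD rats and from 28.2 through 41.5 to 55.4 in HFD rats. Below the lowest SD rat were 5 HFD rats, and C3 had a log2 fold change of -0.66 (SE 0.17, limma, adjusted p = 0.918). Of the 23 complement genes tested, 8 lay above 0, beside 46.2% of all genes, and C3 alone had an unadjusted p under 0.05. Apln (ENSRNOG00000003984), which encodes the vasodilator apelin, ran from 17.8 through 21.96 to 31.1 in SD rats and from 10.4 through 13.7 to 20.9 in HFD rats, with 7 HFD rats below every SD rat. Il17d (ENSRNOG00000051120), a cytokine of the interleukin 17 family, ran from 17.1 through 25.96 to 37.4 in SD rats and from 10.8 through 16.5 to 21.1 in HFD rats. Apln had a log2 fold change of -0.69 (SE 0.19) and Il17d of -0.72 (SE 0.20).

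Robo3, an axon guidance receptor, was the only tested gene in which all 8 HFD rats lay below all 8 SD rats (0.00731%). It ran from 4.27 through 8.04 to 11.5 against 12.3 through 20.9 to 48.7. As for Epha3, 1 such gene among so many can arise by chance. Tmem116 (ENSRNOG00000027480), a membrane protein gene, and Sept5 (ENSRNOG00000029912), a septin of the cytoskeleton, each had 7 HFD rats below every SD rat. Tmem116 had a log2 fold change of -0.61 (SE 0.15) and Sept5 of -0.56 (SE 0.15). Htr5b and LOC100910438 had -1.10 and -1.15, and for LOC100910438 the unadjusted p without the 5 libraries was 0.0584.

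All 24 genes kept their direction without the 5 libraries, and 23 kept an unadjusted p under 0.05. The other 11 rats are part of the 16 by which the genes were picked, so this largely follows from the choice. Among the 13650 genes tested in those 11 rats, limma called 3 (0.022%), while 1483 (10.9%) had an unadjusted p under 0.05, with 742 (5.44%) higher and 741 (5.43%) lower. The log2 fold change of Atp12a was 2.58 (SE 0.27, limma, adjusted p = 0.00433), that of Sorcs1 1.39 (SE 0.15, limma, adjusted p = 0.00433) and that of Sult4a1 -1.88 (SE 0.26, limma, adjusted p = 0.0280). These 3 rest on 6 SD and 5 HFD rats that were kept after their values had been seen. With all 16 rats and the kind of library (the 5 or the other 11) as a covariate, 0 genes were called, and 832 (6.08%) had an unadjusted p under 0.05. The 3 genes then had log2 fold changes of 1.87, 0.89 and -1.46.

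**Figure D4:**
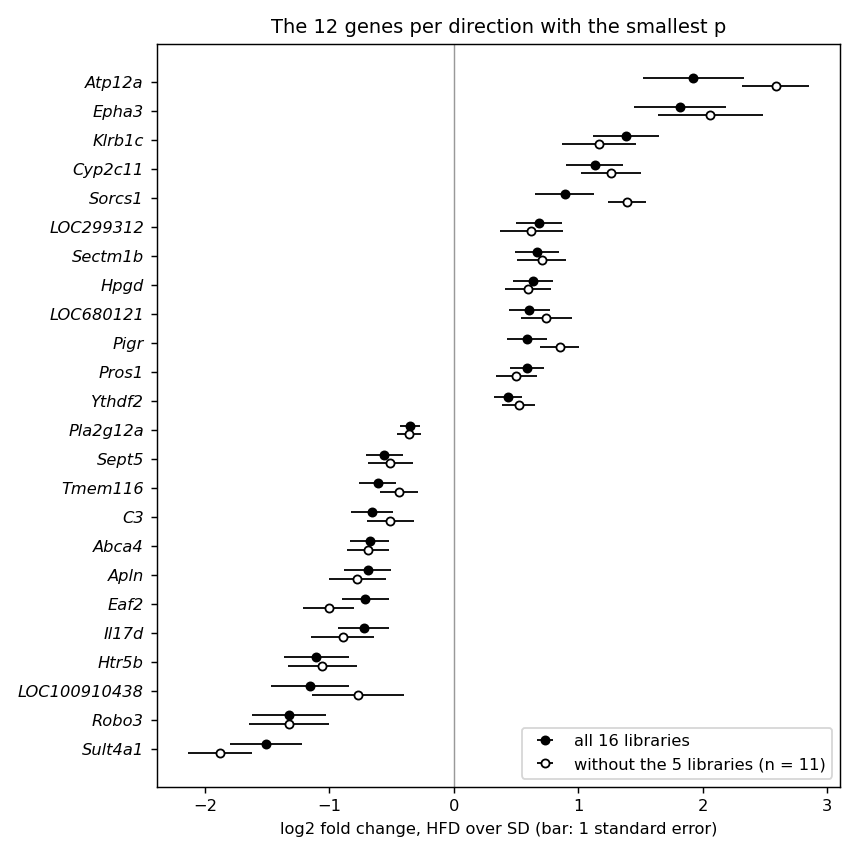
Log2 fold changes (HFD over SD, bars of 1 standard error) of the 12 genes per direction with the smallest p, over all 16 libraries (filled) and without the 5 libraries that stood apart (open). All 24 keep their side of 0, and Atp12a moves from 1.92 to 2.58 and Sorcs1 from 0.89 to 1.39. The genes were picked on all 16 libraries, which include those of the open points.

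Of 26 genes of fatty acid oxidation, many of them targets of the lipid sensor PPAR-alpha, 13 lay above 0 and their median log2 fold change was 0.00, beside 46.2% above 0 and a median of -0.02 over all genes. At an unadjusted p under 0.05 there were 0 higher and 2 lower, beside 1.79% and 2.55% of all genes. The 2 lower were Fabp3, a carrier of fatty acids, with -0.47 (SE 0.20), and Eci1, which isomerizes unsaturated fatty acids in mitochondria, with -0.60 (SE 0.27). Plin2, which coats lipid droplets, ran from 711 through 1083 to 1374 in SD rats and from 862 through 1266 to 1991 in HFD rats (log2 fold change 0.26, SE 0.16). Without the 5 libraries 19 of the 26 lay above 0, beside 46.3% of all genes, with a median of 0.12. At an unadjusted p under 0.05, 4 were then higher and 1 lower, beside 5.44% and 5.43% of all genes.

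Of 12 lipogenic genes 4 lay above 0 (median -0.11), beside 46.2% of all genes. Dgat1, which makes triglycerides, was alone at an unadjusted p under 0.05 with a log2 fold change of -0.30 (SE 0.11), beside 2.55% of all genes lower. Of 20 genes of cholesterol synthesis and uptake 9 lay above 0 (median -0.04) and none had an unadjusted p under 0.05. The sugar genes had a median of 0.05, and Slc2a2, the glucose transporter at the blood side of the proximal tubule, ran from 425 through 755 to 1224 in SD rats and from 509 through 1327 to 2126 in HFD rats. Its log2 fold change was 0.69 (SE 0.29), and 0.99 without the 5 libraries.

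Subunits of the respiratory chain lay below 0 together. Of 24 subunits of oxidative phosphorylation 0 lay above 0, beside 46.2% of all genes, and the median log2 fold change was -0.26. At an unadjusted p under 0.05, 8 were lower, beside 2.55% of all genes. Cox7a2, of cytochrome c oxidase, ran from 6460 through 7289 to 8847 in SD rats and from 4839 through 5790 to 7671 in HFD rats (log2 fold change -0.36, SE 0.10, limma, adjusted p = 0.918). Ndufb9, of complex I, had -0.27 (SE 0.10), and Cyc1, cytochrome c1, had -0.32 (SE 0.13). The mean level of the list, as log2 relative to the 16 rats, ran from -0.15 through 0.07 to 0.47 in SD rats and from -0.33 through -0.16 to 0.25 in HFD rats, so the groups overlapped. With equal totals 5 of the 24 lay above 0, beside 57.9% of all genes. Without the 5 libraries 4 did, beside 46.3% of all genes, with a median of -0.22. At an unadjusted p under 0.05, 4 members were then lower, beside 5.43% of all genes.

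Chaperones of the endoplasmic reticulum, where secreted proteins fold, lay above 0 together. Of 20 genes 17 lay above 0, beside 46.2% of all genes, and the median log2 fold change was 0.19. At an unadjusted p under 0.05, 6 were higher, beside 1.79% of all genes. Hspa5, the chaperone BiP, ran from 8651 through 10661 to 13065 in SD rats and from 9826 through 14305 to 17400 in HFD rats, with 6 HFD rats above every SD rat. Its log2 fold change was 0.37 (SE 0.13, limma, adjusted p = 0.918). Hsp90b1, the chaperone GRP94, had 0.30 (SE 0.10) and Hyou1, a large chaperone of the same compartment, 0.38 (SE 0.15). Without the 5 libraries 14 of the 20 lay above 0 with a median of 0.13, 2 were higher and 2 lower at an unadjusted p under 0.05 (5.44% and 5.43% of all genes), and Hspa5 had 0.19 (SE 0.15). The size of the list's difference thus depended on which libraries were kept.

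Promoters of many such chaperones are known to carry the endoplasmic reticulum stress response element, a CCAAT box and a CCACG box 9 bases apart. The promoters of the 2 members with the smallest p are shown because both hold it, from 250 bases before to 50 after the start, 5′ to 3′, with matches in capitals. They are RefSeq sequences of build GRCr8. The Hspa5 promoter lies on the plus strand at chr3:38452766-38453065 and the Hsp90b1 promoter on the minus strand at chr7:23012244-23012543.
Hspa5: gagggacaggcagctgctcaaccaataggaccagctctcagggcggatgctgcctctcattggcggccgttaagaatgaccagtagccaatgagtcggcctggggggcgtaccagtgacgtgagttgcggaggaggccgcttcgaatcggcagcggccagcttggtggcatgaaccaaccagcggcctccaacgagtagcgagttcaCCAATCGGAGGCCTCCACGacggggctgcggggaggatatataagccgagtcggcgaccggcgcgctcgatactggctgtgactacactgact
Hsp90b1: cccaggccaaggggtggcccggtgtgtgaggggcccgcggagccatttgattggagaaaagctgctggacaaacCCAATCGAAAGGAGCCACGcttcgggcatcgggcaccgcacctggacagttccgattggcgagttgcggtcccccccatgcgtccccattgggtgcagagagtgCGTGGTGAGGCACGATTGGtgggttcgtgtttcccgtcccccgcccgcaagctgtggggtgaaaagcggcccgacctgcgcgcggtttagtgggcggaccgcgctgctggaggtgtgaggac
The match in Hspa5 spans bases 208 to 226, and those in Hsp90b1 span bases 75 to 93 and, on the opposite strand, bases 179 to 197. Searched on both strands as CCAAT, any 9 bases and CCACG, with no other motif searched, it was in the promoters of 7 of the 17 list members matched by symbol and in 22 of 33469 promoters of the same length in all (0.0657%). It was in 0 of 20 promoters of the oxidative phosphorylation list, where so rare a match would seldom fall. The chaperone list holds genes of a kind known to carry the element, so its count follows from how it was chosen and not from the diet values. A match is a stretch of letters and not a measured binding site.

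Genes of macrophages, scavenger cells of the tissue, lay mostly below 0. Of 13 genes 2 lay above 0, beside 46.2% of all genes, and the median log2 fold change was -0.30. At an unadjusted p under 0.05, 1 was lower, beside 2.55% of all genes. This was Aif1, a calcium-binding protein of macrophages, which ran from 108 through 139 to 193 in SD rats and from 46.2 through 92.6 to 159 in HFD rats (log2 fold change -0.51, SE 0.22). Lyz2, lysozyme, had -0.45 (SE 0.24, limma, adjusted p = 0.918). The 2 members above 0 were Mrc1, with 0.42 (SE 0.27), and Cd86, with 0.06 (SE 0.12). The median of the macrophage list was -0.31 without the 5 libraries, -0.19 without SD rat 1244 and -0.45 without SD rat 1251, the smallest and largest sizes when single rats were left out.

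Of 22 chemokines and cytokines 7 lay above 0, beside 46.2% of all genes. At an unadjusted p under 0.05, 1 was higher and 4 lower, beside 1.79% and 2.55% of all genes. Without the 5 libraries 6 of 21 lay above 0, with 0 higher and 1 lower, beside 5.44% and 5.43% of all genes. Cxcl13, which draws B cells, ran from 15.5 through 19.98 to 29.9 in SD rats and from 3.68 through 11.04 to 19.6 in HFD rats, with a log2 fold change of -0.90 (SE 0.28). Ccl19, which draws T cells and dendritic cells, had -0.85 (SE 0.33). Ccl20 went the other way, with 1.48 (SE 0.47), and 0.90 without the 5 libraries, where its unadjusted p was 0.0772. Interferon response genes had a median of -0.06, with 7 of 18 above 0 and none at an unadjusted p under 0.05. Leaving out the 5 libraries, 3 of the 18 lay above 0, with a median of -0.29.

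Proliferation genes lay above 0 in 14 of 17 cases, beside 46.2% of all genes, with a median log2 fold change of 0.27. Bub1b, of the mitotic checkpoint, ran from 1.76 through 6.10 to 9.55 in SD rats and from 6.74 through 9.64 to 47.2 in HFD rats, and Rrm2, of DNA precursor synthesis, from 3.05 through 6.50 to 7.68 and from 5.28 through 8.13 to 28.4. HFD rat 1255 held the highest value of both. Top2a, a topoisomerase of dividing cells, stood at 235 in rat 1255 and at 12.1 to 54.7 in the other 15. The median of the list was 0.11 without rat 1255 and 0.06 without the 5 libraries. This library also had the highest urothelium sum, given above, and the part of that in these values was not tested.

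Heat shock genes lay above 0 in 8 of 11 cases (median 0.08), beside 46.2% of all genes. Hspa8, the constitutive chaperone of the cytosol, had a log2 fold change of 0.58 (SE 0.21). Hspa4l had 0.53 (SE 0.25), and 0.34 without HFD rat 1252. Without the 5 libraries 5 of the 11 lay above 0 (median -0.02), beside 46.3% of all genes. Of 22 antioxidant and glutathione genes 9 lay above 0, and Gsta3, a glutathione transferase, was lower at an unadjusted p under 0.05 with -0.64 (SE 0.30). Of 25 matrix genes 14 lay above 0, and Nid1, which links basement membrane proteins, had 0.50 (SE 0.22). Genes of the TGF-beta pathway lay above 0 in 13 of 16 cases, beside 46.2% of all genes. Their median was 0.08, and none had an unadjusted p under 0.05. Among 19 clock genes Bhlhe41, a repressor of the clock, had 0.89 (SE 0.35), and 1.32 without the 5 libraries.

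Several further lists had medians between -0.04 and 0.15. Over all genes 46.2% lay above 0, and 1.79% were higher and 2.55% lower at an unadjusted p under 0.05. Of 13 genes of the renin-angiotensin-aldosterone system, which sets blood pressure and salt balance, 9 lay above 0 with a median of 0.13, and none had an unadjusted p under 0.05, against 2 higher without the 5 libraries. Of 33 axon guidance genes, the list that holds both Epha3 and Robo3, 17 lay above 0 with a median of 0.00, and those 2 were its only members at an unadjusted p under 0.05 with all 16 rats. Leaving out the 5 libraries, 6 members were higher and 1 lower, beside 5.44% and 5.43% of all genes, with a median of 0.09. Of 18 genes of eicosanoid and P450 metabolism 9 lay above 0 with a median of -0.04, with 2 higher and 1 lower at an unadjusted p under 0.05. In the 11 other libraries 12 of the 18 lay above 0 with a median of 0.13. Immediate early genes, which answer handling and stress within minutes, lay above 0 in 13 of 18 cases with a median of 0.15, which was -0.10 without HFD rat 1255.

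**Figure D5:**
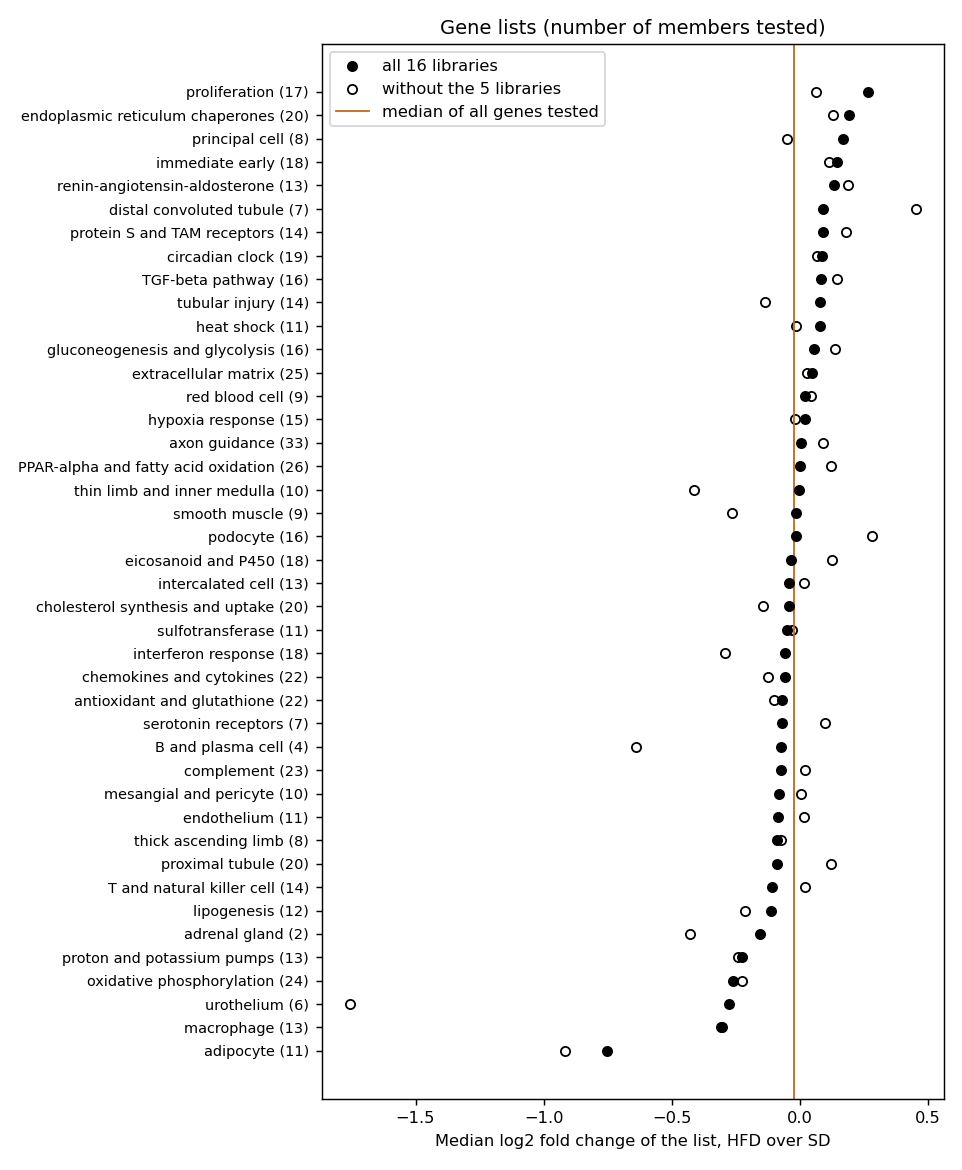
Median log2 fold change (HFD over SD) of each gene list, with the number of members tested in brackets, over all 16 libraries (filled) and without the 5 libraries that stood apart (open), beside the median of all genes. The oxidative phosphorylation list sits at -0.26 and -0.22 and the macrophage list at -0.30 and -0.31, while the urothelium list moves from -0.28 to -1.76 and the podocyte list from -0.01 to 0.28.

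Among cell type lists, podocyte genes had a median of -0.01, with 7 of 16 above 0, beside 46.2% of all genes. Cd2ap, an adaptor of the slit diaphragm, was higher at an unadjusted p under 0.05 with a log2 fold change of 0.45 (SE 0.18). Without the 5 libraries 15 of the 16 lay above 0, with a median of 0.28 and 4 higher at an unadjusted p under 0.05, beside 46.3% of all genes above 0 and 5.44% higher. Without HFD rat 1255 alone the median of the podocyte list was 0.22. The summed podocyte list ran from 8991 to 13721 in SD rats and from 6665, in rat 1255, to 13971 in HFD rats. In the proximal tubule list 7 of 20 lay above 0, and 15 of 20 without the 5 libraries. For the thick ascending limb, 0 of 8 genes lay above 0 (median -0.09), against 2 with equal totals and 3 without the 5 libraries. Of all genes, 57.9% lay above 0 with equal totals and 46.3% without the 5 libraries. Adipocyte genes lay above 0 in 0 of 11 cases, with a median of -0.75, but none had an unadjusted p under 0.05, and the highest sums were those of single rats of both diets. The median of the adipocyte list was -0.32 without SD rat 1244, -0.40 without SD rat 1245 and -1.30 without HFD rat 1255.

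Some genes were highest in rat 1255. Krt5, a keratin of basal urothelium, stood at 1346 in that rat and between 0 and 36.8 in the other 15, and its log2 fold change of 0.48 (SE 1.19) became -0.58 without it. Nr4a3, an immediate early nuclear receptor, stood at 221 in that rat and between 1.95 and 22.8 in the others (log2 fold change 0.63, SE 0.61, and 0.07 without that rat). Mroh9, of a family of HEAT repeat proteins, reached 89.5 there and 36.2 to 49.5 in HFD rats 1252, 1256, 1267 and 1274. Its log2 fold change of 1.18 (SE 0.53) was 0.92 without rat 1255 and 0.54 without the 5 libraries. Tmem258b ran from 204 through 358 to 498 in SD rats and from 182 through 221 to 328 in HFD rats, with a log2 fold change of -0.62 (SE 0.18). Actb, the cytoskeletal actin often used as a reference gene, had a log2 fold change of 0.36 (SE 0.19).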

How the data were processed

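The normalized counts (signal) analyzed are the authors' values per gene and library, as deposited: per the labels, directional libraries of total RNA were trimmed with Cutadapt, quantified with Salmon against Rnor6.0 and tested with DESeq2 (version 1.24.0). They are not whole multiples of a step, so neither reads nor counting error could be recovered, and their scaling is not given in the sources used here. The authors' columns of fold changes and p-values were not used, nor was any column outside the 16 samples (0 such columns). Replicates are rats. Genes with a mean under 5 (1074) were left out, and log2(value + 1) was fitted in R 4.3.3 by limma 3.58.1 with a variance trend, adjusted by Benjamini-Hochberg over all genes. A fold change on this scale understates that of low genes. Single values were compared by exact permutation. Salmon may divide reads between near-identical genes (the Cyp2c, Klrb1, Sult and Tmem258 families), whose values are uncertain.

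Genes were named by a rule: the 12 per direction with the smallest p, those without overlap, the leading genes of the fit with the segment score, up to 3 per list, the largest loadings on the first component, those of the study's diet heat map with Actb, and the 2 most raised genes of each rat. Hoxa6 was chosen after its values were seen. The comparison, the members and the 42 lists were chosen with earlier results of these data known. The fits with the first component itself or the kind of library as a covariate, and without the 5 libraries, were added after seeing the data. A result on a withheld item is not reported here. Lists got no test. The scripts were tested on simulated data.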

Additional observations from a re-analysis of the deposited data

Results flagged for a closer look

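In 128 groups of 8 rats (58 genes, 4 measures of the library and 2 marker sums, in each diet), 9 held a rat whose gap to the nearest other, on the log2 scale for genes and sums, was a larger share of the range than Dixon's 95% critical value. About 1 in 20 groups passes this by chance.

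HFD rat 1255 accounted for 5 of the 9. It stood at 1346 for Krt5 (next HFD rat 10.5), 47.2 for Bub1b (10.6), 235 for Top2a (48.9), 556 for Nr4a2 (124) and 22148 for the summed adipocyte list (7459). HFD rat 1252 had 1237 for Hspa4l, against 550 in the next HFD rat. SD rat 1249 had 5523 for Lyz2, against 3541, and the lowest total of its group, 17623718 against 20381257. SD rat 1247 had 1996 for Trpm7, a channel kinase, against 1113. The cause of these differences was not tested.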

How the results depend on the processing

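Of 58 genes followed through the alternatives, 57 kept one direction under every alternative. The alternatives use the same rats, and many of the genes were picked by their p in them, so this is not independent support. The exception was Krt5, at -0.10 with array weights, -0.88 without the 5 libraries and -0.58 to 0.91 when single rats were left out, the lowest without rat 1255. Direction was steadier than the unadjusted p. Of 1784 gene values under the alternatives, 1624 stayed the same, 132 lost an unadjusted p under 0.05 and 25 gained one. With single rats left out, Trpm7 lost it in 12 fits, and Gsta3, Hspa4l and Mroh9 in 10 each. Aif1, Eci1 and Nid1 lost it in 8 each. The count of called genes, 0, became 7 (77 at any fold change, 9 higher and 68 lower) with the first component computed after removing diet means as a covariate, where 2308 genes (875 higher, 1433 lower) had an unadjusted p under 0.05. That covariate cannot absorb the uneven split of the 5 libraries between diets. With the first component itself 0 of the 77 were called, and 1006 genes (445 higher, 561 lower) had an unadjusted p under 0.05. Array weights called 6 (8 at any fold change: Sult4a1, Atp12a, Pigr, Sorcs1, Epha3, Klrb1c, Cyp2c11 and Eaf2), with 2282 (1129 higher, 1153 lower) at an unadjusted p under 0.05. Without the 5 libraries there were 3 calls, 2 with the segment score as a covariate, and 1483 genes (742 higher, 741 lower) at an unadjusted p under 0.05. Equal totals gave 602 higher and 157 lower.

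With the segment score as a covariate 0 genes were called and 719 (5.26%) had an unadjusted p under 0.05. Leaving out each rat in turn gave 0 to 1 calls, with or without the segment score, and 380 (without SD rat 1244) to 1573 (without SD rat 1247) genes at an unadjusted p under 0.05, 149 to 803 of them higher and 220 to 770 lower. Without HFD rat 1256 there were 1167.

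The difference in distance between and within diets was 0.485%, -2.43% with the 500 most variable genes, and -0.99% to 3.72% without single rats. The difference in spread was -4.89, and -9.24 to 4.04 without single rats. That of the first component was 17.9, -6.53 without the 5 libraries and 7.79 to 30.2 without single rats. That of the segment score was -0.23, 0.37 without the 5 libraries and -0.46 to 0.13 without single rats. None of these differences passed 0.05 by exact permutation. No paired analysis was possible because the 2 diet groups compared hold different rats and share no rat number. Depth per value is unknown, so low genes such as Epha3 carry a counting error that could not be given.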
